A study of Arabidopsis thaliana with 4 samples.

Results

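The expansins and the xyloglucan endotransglucosylase/hydrolases (XTHs) of Arabidopsis thaliana were followed here by the openness of the chromatin at their genes. Members were all protein-coding genes whose annotation symbol is EXPA, EXPB, EXLA, EXLB or XTH with a number, without EXPA7 and EXPA18. The rule gave 61 genes out of 33056 genes in the annotation, with 31 expansins (21 EXPA, 6 EXPB, 3 EXLA and 1 EXLB) and 30 XTHs. Nuclei came from root tips (5 mm) of Col-0 plants, the reference accession, grown either on control medium or under osmotic stress, for which sorbitol was given. The labels number 2 libraries in each group, control replicate 1 and 2 and stress replicate 1 and 2, which the study names biological replicates. The assay read RNA and open chromatin (ATAC) from the same nucleus, and the ATAC part is used here: a transposase cuts accessible DNA, and the number of cuts at a gene measures how open it is. The tissue is a mixture of all cell types of the root tip.

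A growing plant cell is held by a wall of cellulose microfibrils tied together by other polysaccharides, among them xyloglucan. Expansins loosen this wall without cutting its polymers and work best at acidic pH, which plasma membrane proton pumps provide. EXPA proteins are the alpha-expansins and EXPB proteins the beta-expansins, while EXLA and EXLB are expansin-like proteins with no loosening activity shown. XTHs cut a xyloglucan chain and join it to another chain, or to water, and so remodel the network as the cell elongates. In roots, both families are known for their part in cell elongation and root hair growth.

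For 8 members or regions on which the results below turn, 250 bases of sequence are shown, read from TAIR10.1 (RefSeq) on the strand of the gene. Apart from the last line, each is the stretch that ends just before the gene start. In each, a merged region with a peak in all 4 libraries covered the stretch, in full or, for EXPB2, over 228 bases. The peaks at EXPB2 were only 438 bases wide in control replicate 2 and 412 in stress replicate 1. The stretch of EXPB2 therefore need not lie in the peak of every library. Other members with a covered stretch, such as EXPA8 and XTH5, are not shown. Capitals mark matches to 5 motifs searched on both strands: the G-box CACGTG, the core of the abscisic acid response element (ABRE) ACGTGG, the auxin response element TGTCTC, a brassinosteroid response element CGTGCG and the TATA box TATAAA. XTR6 is the gene known as XTH23, whose annotation symbol kept it out of the members, and its upstream stretch lies in the only shared region counted for XTH14. The line for XTH30 is the centre of the upstream region with the largest fitted difference among the regions of members.
EXPA6, chr2:12433797-12434046, minus strand: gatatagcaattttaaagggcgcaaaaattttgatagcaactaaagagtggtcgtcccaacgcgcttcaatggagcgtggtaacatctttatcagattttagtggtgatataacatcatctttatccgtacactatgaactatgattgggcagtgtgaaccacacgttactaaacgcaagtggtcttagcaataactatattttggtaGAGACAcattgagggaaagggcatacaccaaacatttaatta
EXPB2, chr1:24427016-24427265, plus strand: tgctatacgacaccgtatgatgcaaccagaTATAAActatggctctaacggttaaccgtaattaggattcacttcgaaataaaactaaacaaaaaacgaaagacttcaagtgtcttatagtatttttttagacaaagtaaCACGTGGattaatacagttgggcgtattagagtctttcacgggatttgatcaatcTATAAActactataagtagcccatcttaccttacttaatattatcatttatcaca
EXLA3, chr3:16892452-16892701, plus strand: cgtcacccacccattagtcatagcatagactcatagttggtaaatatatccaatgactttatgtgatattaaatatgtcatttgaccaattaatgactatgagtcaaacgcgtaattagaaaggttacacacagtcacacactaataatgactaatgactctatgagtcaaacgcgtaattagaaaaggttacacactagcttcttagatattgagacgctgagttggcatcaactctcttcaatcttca
XTH9, chr4:1415367-1415616, plus strand: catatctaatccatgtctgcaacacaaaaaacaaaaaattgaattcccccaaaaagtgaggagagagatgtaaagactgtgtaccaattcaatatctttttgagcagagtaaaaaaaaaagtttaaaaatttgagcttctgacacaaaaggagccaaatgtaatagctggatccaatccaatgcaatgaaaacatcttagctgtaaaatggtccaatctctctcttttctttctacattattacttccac
XTH17, chr1:24256804-24257053, plus strand: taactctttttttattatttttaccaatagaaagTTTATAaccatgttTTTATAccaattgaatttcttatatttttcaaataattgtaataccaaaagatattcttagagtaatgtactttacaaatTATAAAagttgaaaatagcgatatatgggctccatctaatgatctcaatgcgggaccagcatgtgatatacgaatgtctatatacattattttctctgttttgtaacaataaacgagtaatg
XTH21, chr2:8144631-8144880, plus strand: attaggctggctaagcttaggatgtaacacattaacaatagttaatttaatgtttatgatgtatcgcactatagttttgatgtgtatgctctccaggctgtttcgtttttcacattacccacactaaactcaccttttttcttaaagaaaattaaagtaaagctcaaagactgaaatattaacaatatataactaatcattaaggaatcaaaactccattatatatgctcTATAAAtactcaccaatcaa
XTR6, chr4:13128144-13128393, plus strand: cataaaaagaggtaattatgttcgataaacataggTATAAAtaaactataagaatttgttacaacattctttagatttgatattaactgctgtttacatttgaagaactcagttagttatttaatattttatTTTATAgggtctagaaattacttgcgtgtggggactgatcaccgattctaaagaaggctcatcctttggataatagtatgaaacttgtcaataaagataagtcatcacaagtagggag
XTH30, upstream region, chr1:11573549-11573798, plus strand: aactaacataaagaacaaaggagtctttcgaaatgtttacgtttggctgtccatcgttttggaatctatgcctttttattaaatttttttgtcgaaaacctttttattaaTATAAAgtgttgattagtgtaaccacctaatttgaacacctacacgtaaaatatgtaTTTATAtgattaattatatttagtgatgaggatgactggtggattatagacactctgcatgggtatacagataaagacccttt

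In these stretches the auxin response element was found upstream of EXPA6, starting 42 bases before the gene start. The G-box and the ABRE core of EXPB2 are a single site, since both motifs share letters of CACGTGG, which starts 110 bases before the gene start. No match to any of the 5 motifs was found in the stretches of EXLA3 and XTH9. Over all members, the G-box stood in the 250 bases upstream of 1 of 31 expansins and of 0 of 30 XTHs, against 6.49% of 27443 protein-coding genes. The ABRE core stood upstream of 2 expansins and 2 XTHs (8.23% of all promoters), and the auxin response element upstream of 3 expansins and 2 XTHs (10.9%). The brassinosteroid response element was found upstream of EXPB3 alone (1.57% of all promoters), and the TATA box upstream of 17 expansins and 15 XTHs (47.3%). A match describes letters in this window and no binding was measured.

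The 4 libraries were of unequal depth, with total ATAC counts between 47853119 (control replicate 1) and 75473335 (stress replicate 1). Control replicate 1 stood apart from the other libraries, with 6069 called nuclei against 12068 to 15302 and 19858 peaks against 24317 to 25001. Stress replicate 1 had 15302 called nuclei although the study loaded 15000 per library, so not every called barcode can be a separate loaded nucleus. In total the study kept far fewer nuclei than the 47991 called here. Unless another setting is named, the values below rest on all called barcodes. A called nucleus held a median of 3423.5 to 4851 ATAC counts. Called barcodes found in a pair of libraries numbered 124 to 342. In each library the authors counted only the peaks of that library, so a gene could be compared only where a merged region had a peak in all 4 libraries. Such shared regions numbered 18340 of 27677, and a gene received the counts of every shared region over its body or the 2 kb upstream. Counts were scaled to CPM, counts per 1000000 counts of the library in the gene table after TMM scaling, and values of single regions likewise in the region table, which is a different scale.

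A shared region was found for part of each family. Of the 31 expansins, 23 had a shared region (74.2%), against 18 of the 30 XTHs (60.0%) and 72.1% of all protein-coding genes. All 6 EXPB genes and EXLB1 had one, as did 14 of 21 EXPA and 2 of 3 EXLA genes. The gene start itself lay in a shared region for 5 expansins (16.1%) and 5 XTHs (16.7%), while this held for 47.9% of protein-coding genes. The 10 genes were EXPA6, EXPA8, EXPA11, EXPA25, EXLA3, XTH5, XTH9, XTH17, XTH19 and XTH21. No test was made of these shares.

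Most shared regions of the members lay away from the gene start. The 23 expansins had 26 distinct regions, and by gene 13 of 28 placements were upstream of the gene, 9 over the gene end, 5 over the start and 1 inside the gene. The 18 XTHs had 23 regions, of which 10 were upstream, 5 over the gene end, 5 over the start and 3 inside the gene. The regions were 659 to 1035 bases long. A region of 19 expansins and 14 XTHs was also counted for another gene, and for 9 expansins and 5 XTHs every region was nearer to the start of another gene than to their own. The shared region of EXPB1, chr2:8942332-8943322, is nearest to its own start but covered the gene end and overlapped the neighbouring AT2G20760. The region over the EXPB1 start lacked a peak in control replicate 1 and had 47.8 CPM of the region table in control replicate 2 and 48.7 and 48.9 CPM in stress. XTH14 had its region at chr4:13127665-13128699, centred at -2109 from its gene start, where it covered the start of XTR6.

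**Figure D1:**
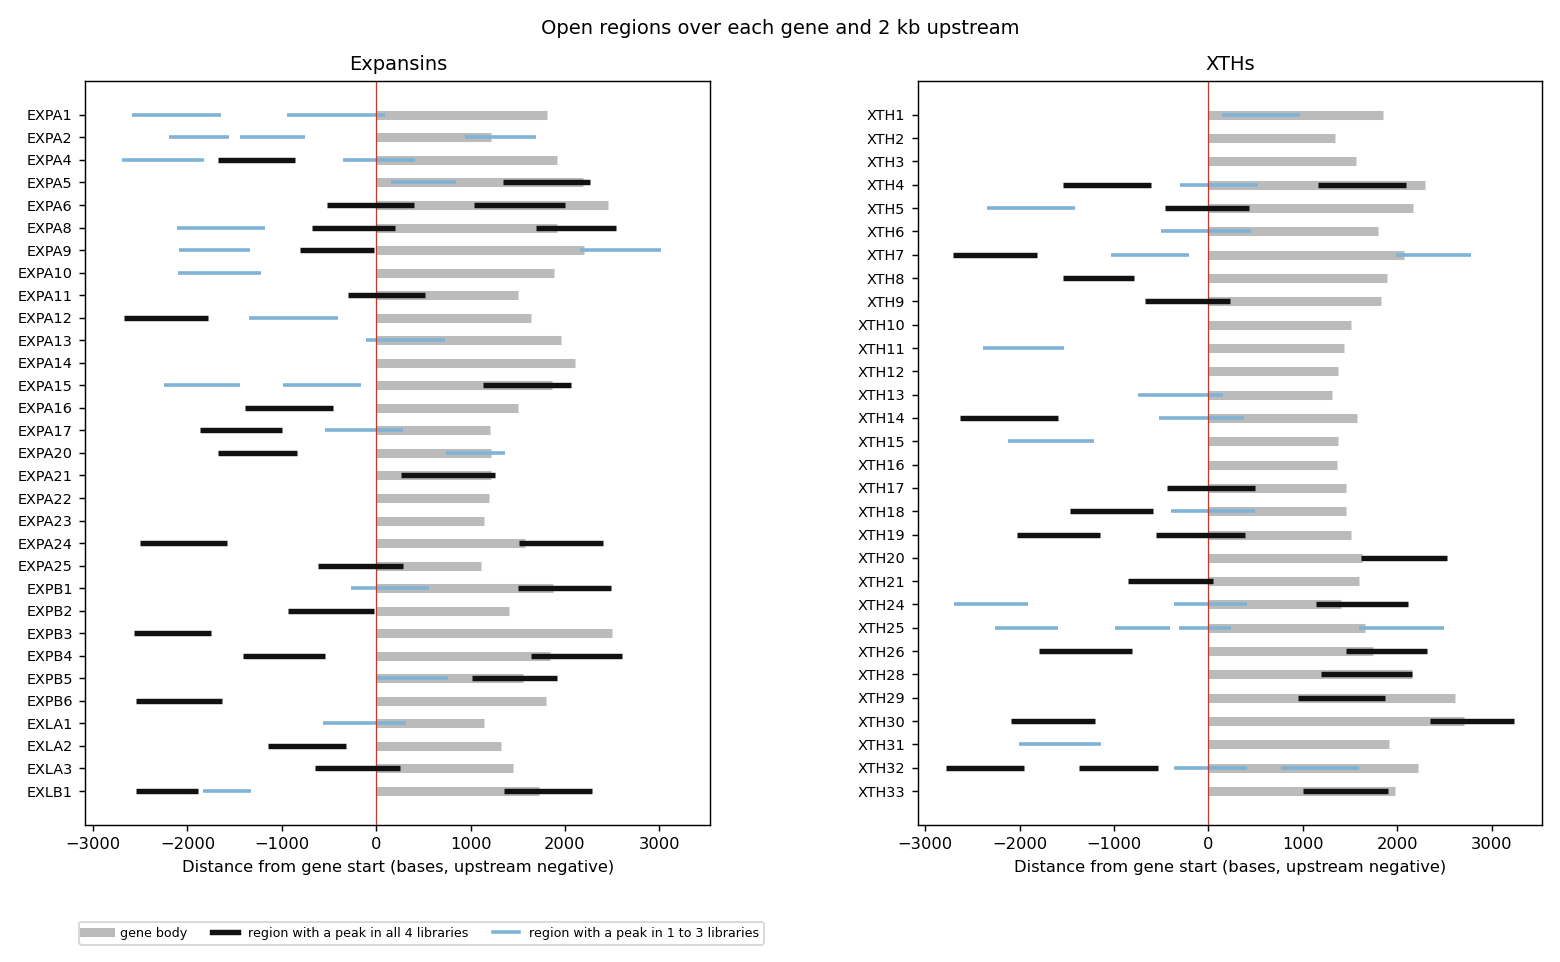
Open regions over each of the 31 expansins (left) and 30 XTHs (right), drawn by distance from the gene start in bases, with upstream negative. Grey bars are gene bodies, black lines regions with a peak in all 4 libraries and blue lines regions with a peak in 1 to 3 libraries; in each family 5 black lines cross the gene start.

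Of 17 members whose starts lie within 10000 bases of another member, 9 had a shared region. In the row EXPA21, EXPA22, EXPA23, EXPA25 and EXPA24 on chromosome 5, EXPA22 and EXPA23 had no peak in any library, and EXPA24 and EXPA25 shared 1 region that covers the EXPA25 start and the EXPA24 end. In the row XTH12, XTH13 and XTH25 on the same chromosome, none had a region shared by all libraries. EXPB2 and EXPB6, neighbours on chromosome 1, had the same single region and so the same values.

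Levels per length of region were compared as CPM per kb, the mean over the 4 libraries divided by the length of the shared regions. The median was 27.9 for expansins, 28.6 for XTHs and 31.998 for all 22820 genes with a shared region. EXLA2 had the highest value of all members (66.1 CPM per kb), followed by XTH33 (53.8), an XTH held at the plasma membrane, and EXPB3 (53.0). EXPB2 and EXPB6 were the lowest (13.2 CPM per kb), followed by EXPA21 (15.1). The region of EXLA2 also lay over other genes, and that of EXPB3 over AT4G28260, so these levels belong to the place and not to the member alone.

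At EXPB2 and EXPB6 both the values and the widths of the called peaks differed between libraries. Their shared region had 15.9 and 7.54 CPM in the control libraries and 7.996 and 16.6 CPM in the stress libraries. One library of each group was high and the other low, and the groups overlapped. The peaks called there were 771, 438, 412 and 770 bases wide in the same order. Per kb of each library's own peak, the region values were 37.8, 31.6, 35.5 and 39.4 CPM of the region table, which are closer together. The widths at XTH14 differed less (922, 829, 816 and 797 bases). Peak width was used only as an offset in a fit, and whether it accounts for the values of EXPB2 and EXPB6 was not tested.

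**Figure D2:**
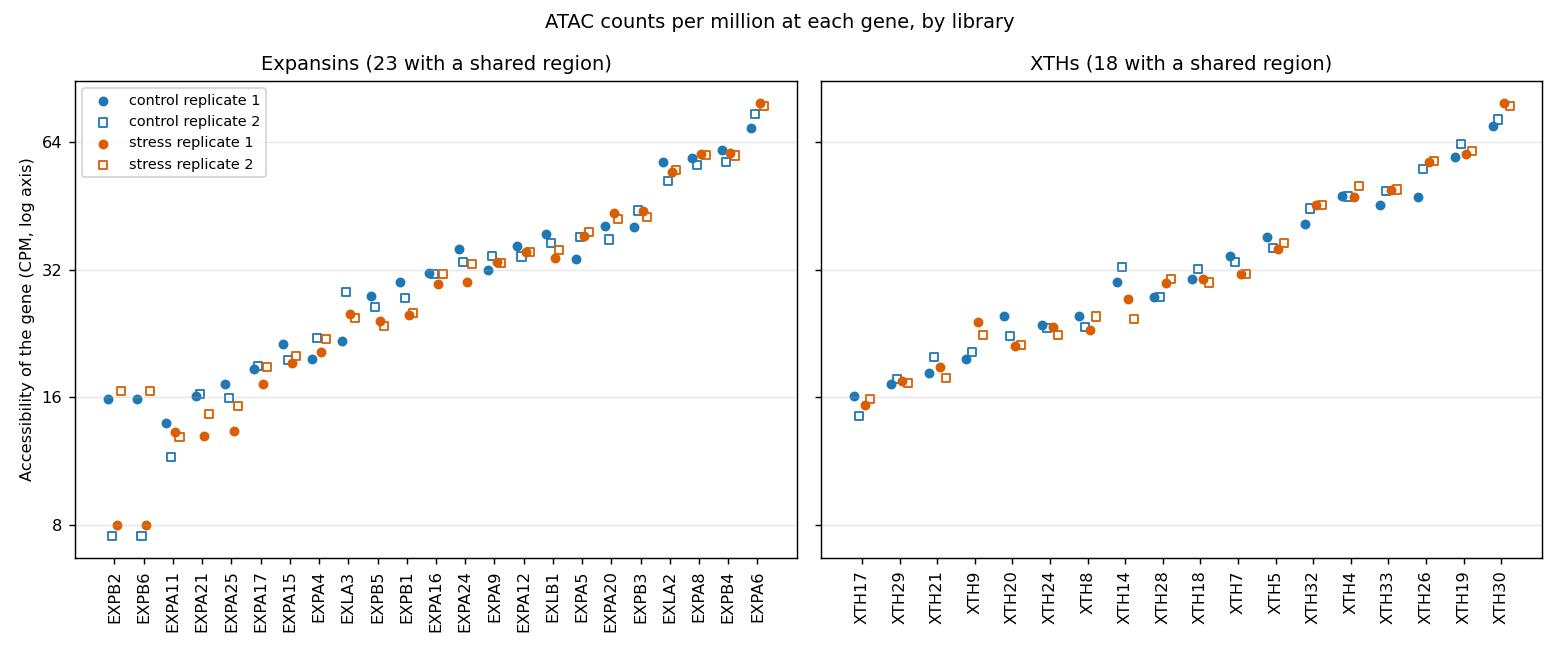
Accessibility in CPM of the gene table (log axis) of the 23 expansins and 18 XTHs with a shared region, by library: blue for control, orange for stress, filled circles for replicate 1 and open squares for replicate 2. EXPB2 and EXPB6 are split by library and not by group, from 7.54 to 16.6 CPM, while most other members hold the 4 libraries close together.

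The central comparison asked whether osmotic stress, changed the openness of wall-loosening genes. No expansin and no XTH passed the threshold of 0.05 on the adjusted p (edgeR quasi-likelihood test, Benjamini-Hochberg over 22820 genes), where 0.925% of all genes did (211 genes). At an unadjusted p under 0.05 there were 5 of 23 expansins (2 higher and 3 lower under stress) and 6 of 18 XTHs (4 higher and 2 lower), against 21.9% of all genes (12.2% higher and 9.71% lower). The median log2 fold change of stress over control was 0.00027 for expansins, -0.0099 for XTHs and -0.0015 for all genes. DESeq2 called 3 XTHs (XTH9 and XTH30 higher, XTH14 lower) and no expansin, while it called 11.2% of all genes. The libraries of the groups did not overlap for 11 of 23 expansins (4 above and 7 below control) and 9 of 18 XTHs (6 above and 3 below), against 57.3% of all genes (28.8% above and 28.5% below). In sums over all nuclei, fewer nuclei of a type and less open chromatin per nucleus cannot be told apart.

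Among the XTHs, XTH14, whose enzyme is known from root hairs, had the largest difference. XTH14 had 30.0 and 32.5 CPM in the control libraries and 27.3 and 24.6 CPM in the stress libraries. Both stress libraries lay below both control libraries. The means were 31.2 ± 1.79 and 25.9 ± 1.96 CPM (SD, n = 2 each), with a log2 fold change of -0.27 (SE 0.069, edgeR adjusted p = 0.101). With the width of each library's peak as an offset the log2 fold change was -0.16 (edgeR adjusted p = 0.302). The same region belongs to XTR6, which lies nearer, and the counts of the genes cannot be told apart.

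XTH9, known for a part in cell elongation, had a difference of the other sign. It had 19.8 and 20.5 CPM in control and 24.1 and 22.4 CPM in stress, so that both stress libraries were higher. The log2 fold change was 0.21 (SE 0.065, edgeR adjusted p = 0.135), and its region covered the gene start. XTH30 had 69.8 and 72.4 CPM in control and 79.0 and 77.8 CPM in stress, again without overlap (log2 fold change 0.14, SE 0.042, edgeR adjusted p = 0.125). Its 2 regions had differences of unlike sign, which were not tested against each other. The upstream region had 56.4 and 67.2 CPM of the region table in control and 79.8 and 76.98 in stress (log2 fold change 0.34, SE 0.082, edgeR adjusted p over 18340 regions = 0.086). The region at the gene end, which also covers AT1G32172, had 71.7 and 65.7 CPM in control and 64.8 and 65.4 in stress (log2 fold change -0.076).

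In 6 further XTHs the groups did not overlap either, among them XTH33. XTH26, also known from root hairs, had 47.6 and 55.3 CPM in control and 57.4 and 57.8 CPM in stress (log2 fold change 0.16). By region, XTH26 had a log2 fold change of 0.29 upstream (edgeR adjusted p = 0.152) and 0.004 at the gene end. XTH28 had 27.6 and 27.7 CPM in control and 29.9 and 30.5 CPM in stress (0.13). XTH32 had 41.0 and 44.7 CPM against 45.6 and 45.4 CPM (0.086). XTH20 was lower under stress in both libraries, with 24.9 and 22.3 CPM against 21.2 and 21.3 CPM (-0.15). XTH7 had 34.4 and 33.4 CPM against 31.4 and 31.2 CPM (-0.12). None of these passed the adjusted threshold.

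Among the expansins, the largest differences were negative. EXPA21 had 16.1 and 16.3 CPM in control and 13.0 and 14.6 CPM in stress (log2 fold change -0.23, SE 0.089, edgeR adjusted p = 0.196). EXPA25, of the same row on chromosome 5, had 17.2 and 15.9 CPM against 13.3 and 15.2 CPM (-0.21), and EXPA24, which shares that region, had 35.9 and 33.4 CPM against 30.0 and 33.1 CPM (-0.14). These 3 neighbours, all below control in both stress libraries, rest on 3 regions, 1 of which was counted for both EXPA24 and EXPA25. EXPB5 had 27.7 and 26.2 CPM in control and 24.2 and 23.6 CPM in stress (-0.17, edgeR adjusted p = 0.150).

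EXPB1 had the smallest adjusted p of the expansins. Its values were 29.9 and 27.5 CPM in control and 25.1 and 25.3 CPM in stress, so that stress was lower without overlap (log2 fold change -0.18, SE 0.059, edgeR adjusted p = 0.143). Only 4 expansins were higher in both stress libraries. EXPA20 had 40.7 and 37.7 CPM in control and 43.6 and 42.2 CPM in stress (0.13). EXPA6 had 69.2 and 74.8 CPM against 79.3 and 77.8 CPM (0.12). EXPA5, an expansin of brassinosteroid-dependent growth, had 34.0 and 38.3 CPM against 38.4 and 39.4 CPM (0.10). EXPA8 had 58.7 and 56.4 CPM against 60.1 and 59.6 CPM (0.058).

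**Figure D3:**
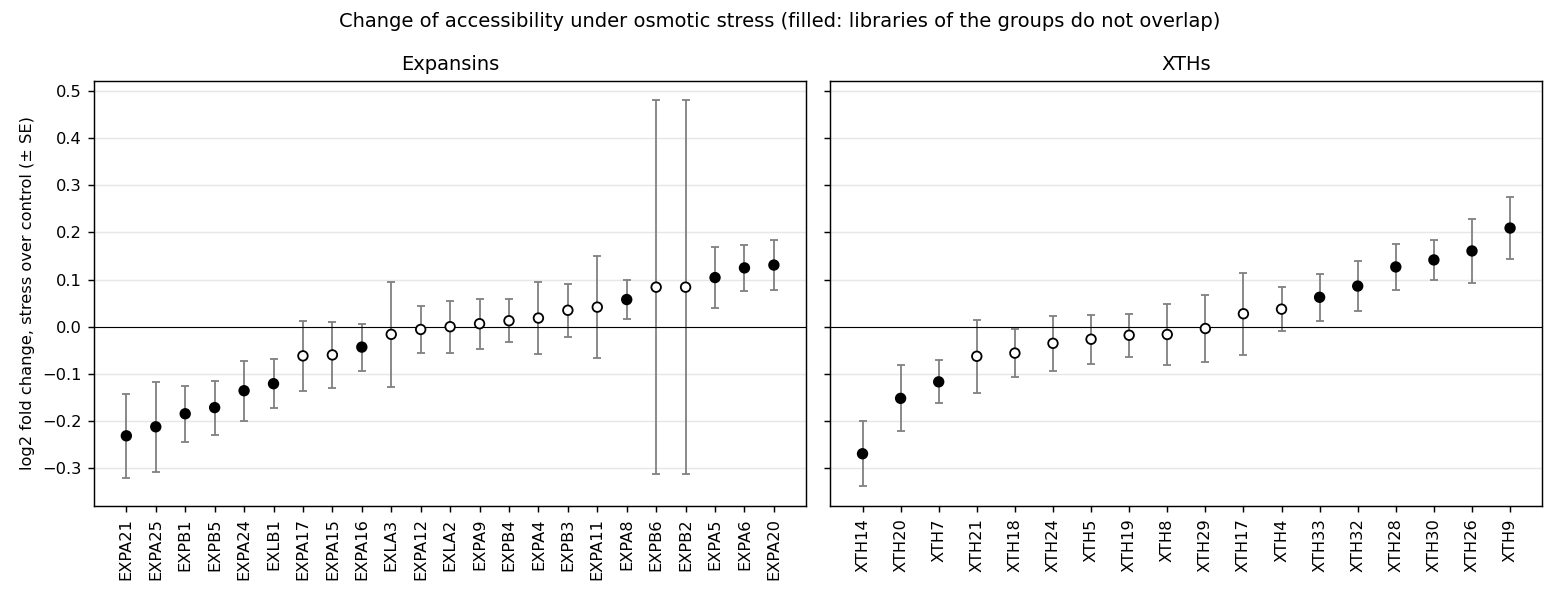
Log2 fold change of stress over control for each expansin (left) and XTH (right) with its standard error from edgeR, sorted by value. Filled points are members whose control and stress libraries do not overlap, 11 expansins and 9 XTHs; no point passed the adjusted threshold, and values run from -0.27 for XTH14 to 0.21 for XTH9.

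The families were also compared as sums, with each region counted once. The 26 regions of the expansins held 1325 and 1302 CPM of the region table in control and 1296 and 1323 CPM in stress. The 23 regions of the XTHs held 1132 and 1167 CPM in control and 1165 CPM in each stress library. In control the ratio of XTHs to expansins was 0.854 and 0.896, and under stress it was 0.899 and 0.881, so the groups overlapped (means 0.875 ± 0.030 and 0.890 ± 0.013, SD, n = 2 each, exact permutation test, two-sided, p = 0.667). With 2 libraries a group the smallest p this test allows is 0.333, so it could not pass 0.05.

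By region, 0 of 49 regions of members passed the adjusted threshold in edgeR, against 1.15% of all 18340 regions. At an unadjusted p under 0.05 there were 10 (4 higher and 6 lower), against 23.5% of all regions, and DESeq2 called 6, against 12.4% of all regions. The control and stress libraries did not overlap in 22 of the 49 regions (44.9%), against 58.5% of all regions. EXLB1, named after its values were seen, also had a pair of regions with unlike values, with a log2 fold change of -0.21 at the gene end, which it shares with AT4G17020 (edgeR adjusted p = 0.097), and 0.021 upstream.

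The number of members called differed with the control library left out, and so did the share of all genes called. Without control replicate 1, the library that stood apart, edgeR called 5 expansins and 3 XTHs. EXPA20, EXPB2, EXPB6, XTH30 and XTH9 were higher and EXLA3, EXPA21 and XTH14 lower, while 20.1% of all genes were called. Without control replicate 2 it called 11 expansins and 9 XTHs, 9 members higher and 11 lower, with 43.3% of all genes. EXLA3 was called in opposite directions in these fits (log2 fold change -0.19 and 0.19), as were EXPB2 and EXPB6 (0.70 and -0.37), which share 1 region. By region it called 10 and 17 regions of members in these fits, with 19% and 43.3% of all regions. Without stress replicate 1 or without stress replicate 2 it called no member, with 0.688% and 0.811% of all genes, and no region of a member, with 0.224% and 0.196% of all regions. Those fits assume that the lone library of a group varies like the other group, and the stress libraries lay closer to each other than the control libraries did. Differences of single members leaned on the control libraries too. Without control replicate 1 and without control replicate 2, the log2 fold change was 0.022 and 0.20 for EXPA5, 0.060 and 0.27 for XTH26, and 0.027 and 0.15 for XTH32. It was -0.072 and -0.23 for XTH20, -0.084 and -0.19 for EXPA24, and 0.071 and 0.18 for EXPA6. The estimated coefficient of variation between libraries was 0.026 without a control library, 0.067 without a stress library and 0.051 with all 4.

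The genes that supply the substrate and the acidity were taken from 3 lists. Of 10 genes of acid growth control, all with a shared region, AHA1 rose and 0 fell, while 0.925% of all genes were called. At an unadjusted p under 0.05 there were 4 of the 10, all higher, against 21.9% of all genes. AHA1 encodes a plasma membrane proton pump and had 38.7 and 40.5 CPM in control and 48.5 and 48.1 CPM in stress (log2 fold change 0.29, SE 0.046, edgeR adjusted p = 0.044). This call was lost in 7 of 16 alternatives, which included counting the same nuclei per cluster (0.21, edgeR adjusted p = 0.125) and leaving out stress replicate 1 (0.28, edgeR adjusted p = 0.156) or 2 (0.29, edgeR adjusted p = 0.109). The median of that list was 0.14, against -0.0015 for all genes, and its lowest value was that of AHA3 (-0.022). Of 11 tested genes of xyloglucan synthesis and trimming none passed (3 at an unadjusted p under 0.05), and the largest differences were those of CSLC12 (0.27), a glucan synthase of the xyloglucan backbone, and CSLC6 (-0.17). Of 7 tested genes of cellulose synthesis none passed either (2 at an unadjusted p under 0.05), with KOR1 (0.20), an endoglucanase, and CESA4 (-0.15), a cellulose synthase of secondary walls, at the ends.

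The nuclei fell into 12 clusters of at least 50 nuclei in each library, made from 18284 shared regions without those of members. Mean ratios of cell type marker loci to their mean over clusters were at most 1.33, and the clusters are numbered and not named. In cluster 5 all 6 endodermis markers with a shared region stood above their mean over clusters (mean ratio 1.33), and in cluster 1 all 4 phloem markers did (1.23). These were the highest mean ratios of those lists, but all 4 phloem markers (1.05) and all 3 xylem markers (1.14) also stood above their mean in cluster 5, as did all 3 xylem markers in cluster 1 (1.12). In cluster 11 all 5 loci of dividing cells (1.32) and all 5 of the quiescent center or meristem (1.23) did. Trichoblast loci were highest in cluster 10 (5 of 6 above the mean, 1.20), but all 6 stood above it in cluster 7 (1.08). All 5 stele markers (1.09) also stood above their mean in cluster 10. Cortex loci were highest in cluster 6 (2 of 3, 1.22) and root cap loci in cluster 12 (4 of 6, 1.20). All 3 cortex markers, however, stood above their mean in cluster 4 (1.06). Root cap ratios ran from 0.71 to 1.48 in cluster 12, and 4 of 6 also stood above their mean in cluster 3 (1.09), among others. The leading loci of cluster 12, AT2G00340, AT2G01023 and AT2G01021, stood at 9.7 to 11.2 times the mean of the other clusters. Those of cluster 8 were AT2G07628, AT2G07627 and AT2G07655 (5.9 to 6.0 times). The leading locus of each other cluster stood at 1.44 to 3.34 times. Whether clusters 8 and 12 are cell types was not tested. Cluster 3 had 0.85 at the loci of dividing cells, with 6354 to 9465 ATAC counts per nucleus as the median by library.

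Levels by cluster are given as a description, as mean and SD over the 4 libraries in CPM of the gene table. For expansins the ratio of the highest cluster to the mean over clusters had a median of 1.23, for XTHs 1.26 and for all genes 1.19. The lowest cluster stood at a median of 0.65 of the mean for expansins and 0.75 for XTHs, against 0.83 for all genes. Cluster 3 was the lowest cluster for 11 of 23 expansins and for 5 of 18 XTHs, against 22.4% of all genes. Cluster 9 was the highest for 6 expansins and 1 XTH, against 4.43% of all genes. XTHs were most often highest in clusters 1 and 6, with 4 genes each (5.85% and 6.10% of all genes), and lowest in cluster 11, with 6 genes (16.6% of all genes).

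XTH21, an XTH needed for primary root growth, stood highest in cluster 1 with 31.9 ± 4.0 CPM and lowest in cluster 3 with 11.8 ± 1.4 CPM. XTH9 stood highest in clusters 11 (34.8 ± 10.8 CPM), 5 (32.8 ± 7.0) and 6 (29.7 ± 5.5) and lowest in clusters 3 (11.5 ± 1.8) and 10 (11.99 ± 2.2), and its highest clusters overlap within their SD. XTH17, known from the growing root, was highest in cluster 10 (23.4 ± 1.8 CPM) and lowest in cluster 11 (7.1 ± 2.9 CPM). XTH24 was highest in cluster 3 with 29.8 ± 1.2 CPM, in contrast to XTH21 and XTH9, and XTH26 was too (65.5 ± 1.8 CPM). The only shared region of XTH24 lay over its gene end, overlapped AT4G30260 and was nearest to the start of that gene. That of XTH21 covered its gene start but also overlapped PHYB. The levels of XTH24 and XTH21 by cluster thus belong to the place and not to the member alone. XTH32 ranged from 25.8 ± 4.6 CPM in cluster 11 to 53.4 ± 2.5 CPM in cluster 6.

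Among the expansins, EXPA21 was highest in cluster 12 (27.4 ± 1.9 CPM) and lowest in cluster 3 (9.1 ± 1.0 CPM). EXLA3 was highest in cluster 5 (40.3 ± 6.0 CPM), the cluster with the highest endodermis loci, and stood at 14.4 ± 1.3 CPM in cluster 3. EXPB1 was highest in cluster 11 (42.6 ± 4.5 CPM) and lowest in cluster 3 (15.8 ± 1.2 CPM). EXPA15 followed the same order at its ends, with 30.3 ± 4.6 and 10.5 ± 1.4 CPM. EXPA11 had 19.5 ± 2.3 CPM in cluster 9 and 6.2 ± 1.3 CPM in cluster 3. EXPB2 and EXPB6 ranged from 5.7 ± 2.3 to 15.7 ± 8.8 CPM.

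**Figure D4:**
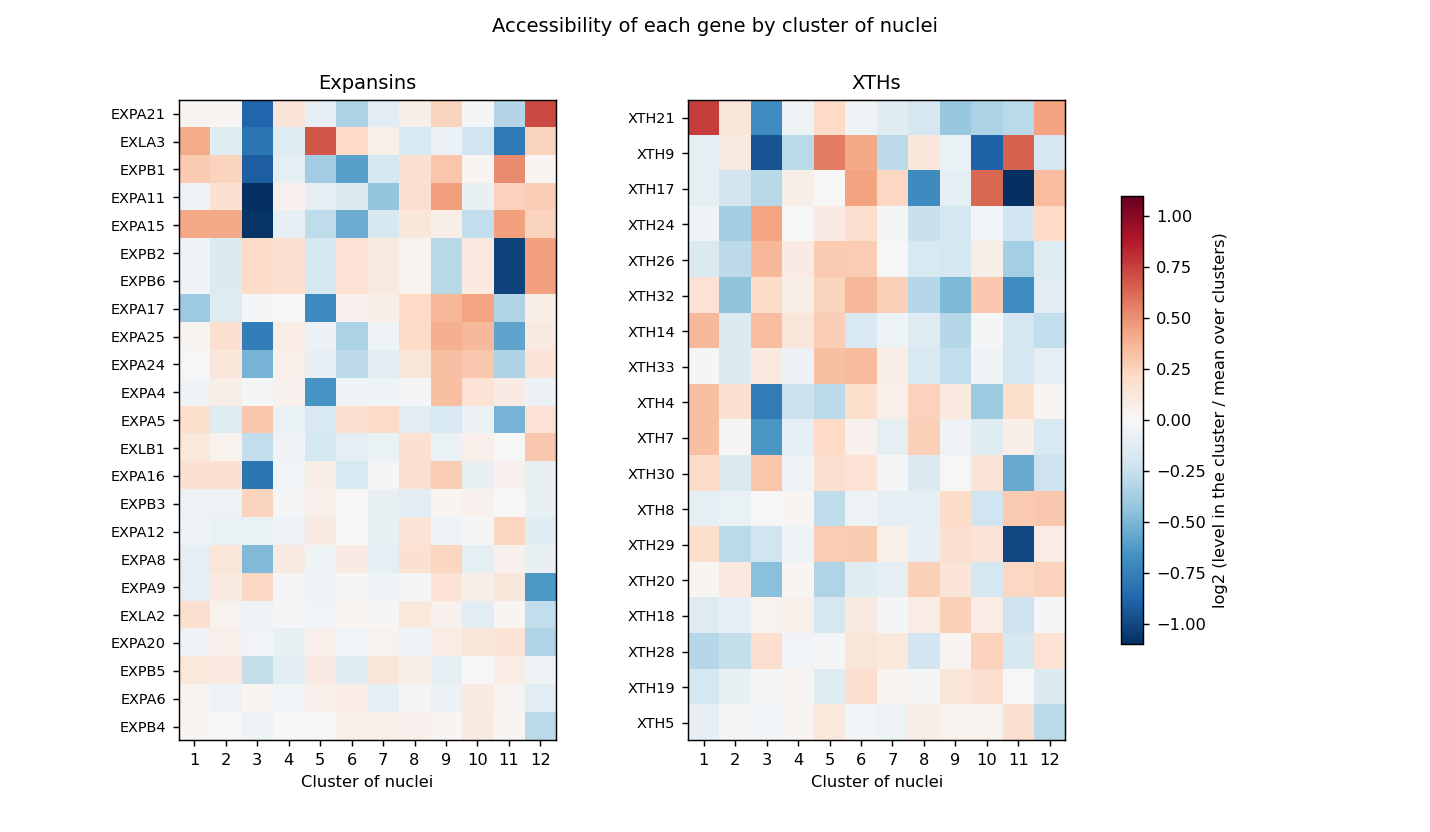
Accessibility of each expansin (left) and XTH (right) in the 12 clusters of nuclei, as log2 of the level in the cluster over the mean over clusters. Genes are sorted by the ratio of their highest cluster to the mean over clusters, with the largest at the top. Blue is below and red above the mean; cluster 3 is the bluest column for expansins, where it is the lowest cluster of 11 of 23 genes.

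Sums over all nuclei weigh the clusters by their shares of nuclei, which were not alike. Cluster 3 held 8.3% and 9.6% of the called nuclei in control and 13.7% in each stress library, and cluster 11 held 3.4% and 3.9% in control and 2.4% and 2.5% in stress. Cluster 5 held 5.3% and 8.3% in control and 11.04% and 11.2% in stress. Clusters 4 and 8 held 18.1% and 18.8% in control replicate 1, 12.8% and 7.6% in control replicate 2 and 5.8% to 7.0% in stress. An alternative chosen after seeing the data drew the same number of nuclei from each cluster in every library (5585 nuclei per library). The draw was random and was not repeated. The log2 fold change of EXPB1 was then 0.0012, against -0.18 with all called nuclei. That of XTH26 was 0.071 against 0.16, that of EXPA25 -0.13 against -0.21, and that of EXPA24 -0.061 against -0.14. XTH7 had -0.064 against -0.12 and EXPA20 0.083 against 0.13. The values of XTH33 (-0.008 against 0.063), EXPB2 and EXPB6 (-0.019 against 0.084) were of the other sign. So were those of EXPA17 (0.034 against -0.062), XTH5 (0.015 against -0.026) and XTH8 (0.016 against -0.016). EXPA9 (-0.0040 against 0.0066) and EXLA2 (-0.017 against 0.00027) changed sign as well. XTH14 (-0.29), XTH30 (0.16), XTH28 (0.12), XTH20 (-0.17) and EXPB5 (-0.23) were at least as far from 0 or within 0.01 of their values over all nuclei. No member passed the threshold in this fit either, with 0.833% of all genes called.

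**Figure D5:**
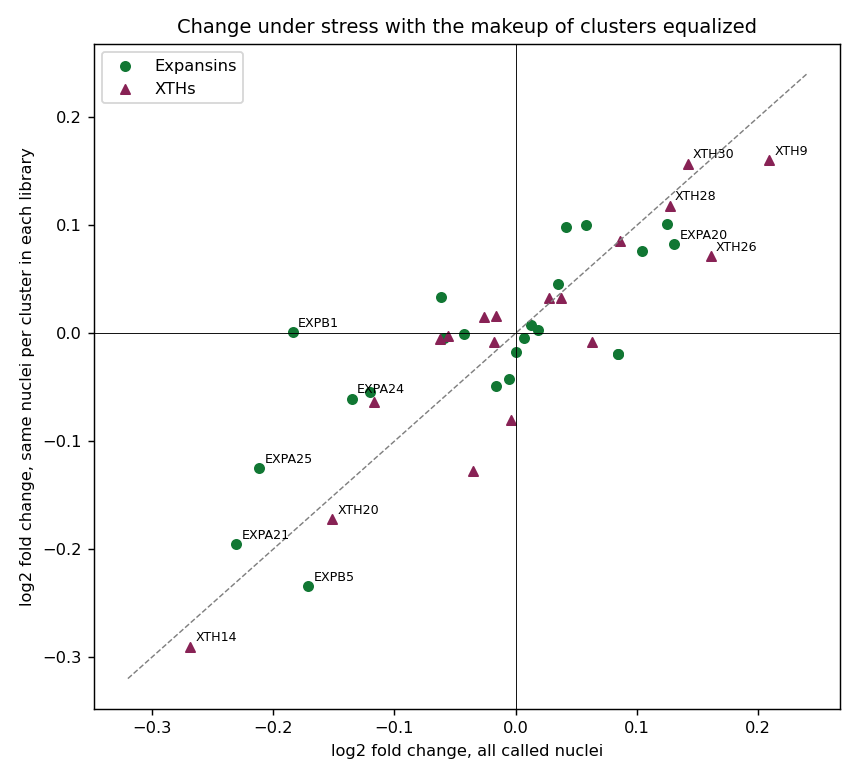
Log2 fold change of stress over control for the 41 members with a shared region, with all called nuclei (x axis) and with the same number of nuclei per cluster in each library (y axis); circles are expansins, triangles XTHs and the dashed line marks equal values. EXPB1 lies at -0.18 and 0.0012, and XTH14 near the line at -0.27 and -0.29.

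Whether the change under stress differed between clusters was tested in a single fit over the 12 clusters with the library as a block. No member passed the adjusted threshold (edgeR), against 0.605% of all genes. At an unadjusted p under 0.05 there were 5 of 41 members (EXPA6, EXPA8, EXLA3, XTH18 and XTH32), or 12.2%, against 12.8% of all genes. Without control replicate 2 the test called XTH9, with 1.39% of all genes.

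The 20 members without a shared region were EXPA1, EXPA2, EXPA10, EXPA13, EXPA14, EXPA22, EXPA23, EXLA1, XTH1, XTH2, XTH3, XTH6, XTH10, XTH11, XTH12, XTH13, XTH15, XTH16, XTH25 and XTH31. They entered no test. EXPA14, EXPA22, EXPA23, XTH2, XTH3, XTH10, XTH12 and XTH16 had no peak in any library over the gene or 2 kb upstream, and 11 had a peak in 1 to 3 libraries. XTH25 had peaks in every library, but none in a region common to all 4. A library without a peak has no count there, which is not a measured level of 0. For EXPA1, known from lateral root initiation, the region over the gene start lacked a peak in control replicate 1 alone and had 39.8 CPM of the region table in control replicate 2 and 42.6 and 45.2 CPM in stress. EXLA1 was alike, with 49.98 CPM in control replicate 2 and 51.5 and 48.4 CPM in stress over its start. XTH13 had 35.4 CPM in control replicate 2 and 34.98 and 33.6 CPM in stress over its start. XTH15 had 34.1 CPM in control replicate 2 and 34.5 and 34.1 CPM in stress in a region upstream. XTH6 had a peak over its start in control replicate 2 (44.4 CPM) and stress replicate 1 (42.1 CPM) only. XTH25 had the only region of a member called in both control libraries and in neither stress library, over its start, with 24.3 and 19.4 CPM.

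Counted by merged region, 49 of the 90 regions in the windows of members had a peak in all 4 libraries (54.4%), against 66.3% of all merged regions. Merged regions called in the stress libraries alone, and in both of them, numbered 6 (6.67%), against 4.06% of all regions, and those with the reverse numbered 1 (1.11%), against 0.827%. Those that lacked a peak in control replicate 1 alone numbered 11 (12.2%), against 12.7%. A region with a peak in a single library was found 15 times (16.7%), against 9.88%.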

How the data were processed

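Members and gene lists were chosen with earlier results of these data known. The deposited files were made with Cell Ranger ARC 2.0.2 (TAIR10, Ensembl annotation), per the file headers. The authors deposited raw counts of ATAC cut sites, neither normalized nor scaled, for every barcode in the peaks called per library. Names of the gene rows were not used here, so no RNA value is given. Gene positions came from RefSeq TAIR10.1, which has the same nuclear chromosome sequences.

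Nuclei were called by the study's limits, with ATAC counts between 1000 and 100000 and RNA counts between 1000 and 25000. Its limits on nucleosome signal and start site enrichment need fragments and were not applied, and no doublet caller was run. A repeat left out the 5% of nuclei richest in ATAC counts. Peaks of the 4 libraries that overlapped or touched were merged. For each library and gene, the counts over called nuclei were summed, a region counting for every gene it lies over, and tested with edgeR 4.0.16 (quasi-likelihood, TMM, filterByExpr, two-sided). Benjamini-Hochberg adjustment ran over all genes or regions, with a threshold of 0.05. DESeq2 1.42.0 was an alternative. The p-values measure the spread between 2 libraries a group. Nuclei were clustered on LSI components 2 to 30 (20 neighbours, Leiden resolution 1), and 181 nuclei outside the 12 clusters were left out there. The main edgeR fits over genes, over regions and over the 12 clusters were tested on simulated data. The alternatives, DESeq2 among them, were not.

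Genes were named by a fixed rule, which took members past the threshold. In each family it took up to 5 largest changes in each direction among members whose groups do not overlap. It also took the 3 highest and 3 lowest levels per kb, members without a shared region, and the ends of each pathway list. By cluster it took the 6 members of each family with the largest ratio of the highest cluster to the mean over clusters (7 expansins by a tie). The reasons for other names stand beside them.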

Additional observations from a re-analysis of the deposited data

Results flagged for a closer look

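At 6 regions of members both stress libraries had a peak and neither control library did, so they entered no comparison. They are listed because signal was found there in the stress libraries while the control libraries have no count, which reflects where peaks were called and is not a measured level of 0. The lower of the stress libraries held 37.4 CPM of the region table upstream of EXPA10, 45.0 CPM over the start of EXPA13 and 20.3 CPM over the start of EXPA17. It held 25.5 CPM over the start of XTH4, 24.99 CPM inside XTH32 and 22.2 CPM upstream of XTH31. For comparison, the median level of a shared region was 49.9 CPM, and 5% of shared regions lay under 27.2 CPM. Regions of this kind made up 4.06% of all merged regions, so members are not alone in having them.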

How the results depend on the processing

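DESeq2 called 3 XTHs and 6 regions of members where edgeR called 0. It also called 11.2% of all genes and 12.4% of all regions, where edgeR called 0.925% and 1.15%. With 1 library left out in turn, expansins called ranged from 0 to 11, XTHs from 0 to 9, regions of members from 0 to 17 and members whose change differed between clusters from 0 to 1, with the highest counts without control replicate 2. The median log2 fold change ranged from -0.049 to 0.0035 for expansins and from -0.0051 to 0.018 for XTHs. The median of the XTHs was 0.012 with at least 2000 ATAC counts per nucleus, and that of the expansins was -0.037 with peak width as an offset, a move beyond the SD between libraries of 0.025. With the replicate number as a block, 1 XTH (XTH14, log2 fold change -0.27, edgeR adjusted p = 0.033) and 1 region of members were called, with 5.82% of all genes and 4.72% of all regions. The labels do not say whether libraries with the same number were handled together. Deviations of libraries with the same number correlated at 0.015 over genes and -0.006 over regions, which cannot decide this with 2 libraries a group. Of 278 values of 17 members and AHA1 under alternatives, 1 turned its direction, EXPB1 with the same nuclei per cluster (0.0012), 24 passed the threshold where the reported value did not and 7 fell short of it, all 7 for AHA1. XTH33, EXLA3, EXPB2, EXPB6, EXPA17, XTH5, XTH8, EXPA9 and EXLA2, not among these, turned theirs as given above. Library totals, DESeq2 size factors, no filter, all barcodes, fragments, the promoter window, adding members by synonym and leaving out the nuclei with most counts left 0 members called, with 0.346% to 1.39% of all genes over these fits and those with peak width or 2000 counts per nucleus. The causes were not tested.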
